A study of Mus musculus with 6 samples.

Results

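The insulin-like growth factor (IGF) system was examined in the mouse pre-osteoblast line MC3T3-E1 through 10 genes chosen by name. These were the ligands Igf1 and Igf2, the receptors Igf1r and Igf2r, and the binding proteins Igfbp2 to Igfbp7, out of 53801 genes in the deposited counts. Transcripts were counted by RNA-seq in 3 Control libraries, from cells carrying a scramble shRNA lentivirus, and in 3 Hdac4-knockdown libraries, from cells carrying an Hdac4-shRNA lentivirus. All 6 libraries came from cells grown in medium with 10% FBS and selected with puromycin at 5 µg/ml for 7 days. The labels describe 3 independent RNA samples per group, the paper calls them biological replicates and names the hairpin as Hdac4-shRNA3, and neither says whether they came from separate infections. The p-values measure the spread between these RNA samples. Hdac4 encodes a class IIa histone deacetylase that binds transcription factors and represses their targets.

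IGF1 and IGF2 are secreted growth factors that bind the type 1 IGF receptor, a tyrosine kinase that signals through insulin receptor substrates to PI3K and AKT. The type 2 receptor, Igf2r, has no kinase: it carries IGF2 and mannose 6-phosphate-tagged enzymes to lysosomes, and so clears IGF2. Outside the cell most IGF is held by the binding proteins, which lengthen its life or keep it from the receptor, and proteases that cut them set it free. In bone, osteoblasts secrete the ligands and several binding proteins and store them in the matrix.

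In the Hdac4-knockdown libraries the set of binding protein transcripts had a different make-up from that in Control. Igfbp2 fell to 0.783% of its Control level and Igfbp5 to 17.6%, whereas Igfbp4 rose 11.2-fold and Igfbp6 rose 1.97-fold. Igf2r rose 10.2-fold, and the signalling receptor Igf1r rose 1.30-fold. Igf1 and Igf2 themselves were close to the limit of detection in every library, and Igf2 may have been measured over part of its exons only.

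The promoters of Igfbp2, Igfbp5, Igf2r and Igfbp4 are shown because these were the members with the 4 largest changes among those counted well in both groups. Each line gives the 250 bases before the RefSeq start of the gene (GRCm38.p6), 5′ to 3′ on the strand of the gene. Capitals mark an E-box (CANNTG, the letters bound by basic helix-loop-helix factors), a GC box (GGGCGG, the letters bound by Sp1) or TATAAA, each searched on both strands. A GC box can overlap another GC box. The windows lie at chr1:72824230-72824479 on the plus strand for Igfbp2, chr1:72874866-72875115 on the minus strand for Igfbp5, chr17:12769707-12769956 on the minus strand for Igf2r and chr11:99040994-99041243 on the plus strand for Igfbp4.
Igfbp2: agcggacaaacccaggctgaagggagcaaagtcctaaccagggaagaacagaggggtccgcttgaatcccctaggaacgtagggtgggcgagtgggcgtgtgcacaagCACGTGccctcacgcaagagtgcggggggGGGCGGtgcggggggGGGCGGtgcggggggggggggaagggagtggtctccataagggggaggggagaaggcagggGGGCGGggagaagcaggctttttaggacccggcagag
Igfbp5: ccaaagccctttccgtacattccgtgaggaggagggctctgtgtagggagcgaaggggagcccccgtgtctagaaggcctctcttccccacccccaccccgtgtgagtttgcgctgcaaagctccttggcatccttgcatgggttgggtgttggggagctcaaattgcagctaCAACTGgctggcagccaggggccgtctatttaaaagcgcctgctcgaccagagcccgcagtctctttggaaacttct
Igf2r: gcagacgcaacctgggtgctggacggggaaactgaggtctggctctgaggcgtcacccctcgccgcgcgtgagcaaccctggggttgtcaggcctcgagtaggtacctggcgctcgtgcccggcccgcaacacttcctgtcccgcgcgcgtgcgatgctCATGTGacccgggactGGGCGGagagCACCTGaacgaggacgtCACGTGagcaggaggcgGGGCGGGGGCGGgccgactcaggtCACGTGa
Igfbp4: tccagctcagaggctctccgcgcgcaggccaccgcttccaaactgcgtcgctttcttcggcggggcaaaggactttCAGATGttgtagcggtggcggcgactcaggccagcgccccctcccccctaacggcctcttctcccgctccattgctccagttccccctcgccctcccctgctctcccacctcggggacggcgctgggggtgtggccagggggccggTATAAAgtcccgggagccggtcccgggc

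The Igf2r window held 4 E-boxes, 3 GC boxes and 27 CpG, and the Igfbp2 window 1 E-box, 3 GC boxes and 14 CpG. The Igfbp4 window held 1 E-box, 1 TATAAA and 22 CpG, and the Igfbp5 window 1 E-box and 10 CpG, with no GC box in either. Over all 32851 promoter windows of the same length, 66.2% held an E-box, 32.7% a GC box and 12.4% TATAAA, and the median CpG count was 6. The MEF2 consensus, named because MEF2 factors are known partners of Hdac4, matched in 0 of the 10 members' windows and in 0.508% of all windows. The letters CAGCTG, the E-box favoured by myogenic factors, were in the Igf1 window and in none of the other 9, against 13.0% of all windows. Neither the 2 members that fell nor the 2 that rose shared a motif that the other pair lacked, and these matches are a description of the letters in these windows only.

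Reads counted on genes numbered 29096544 to 31053296 in the Control libraries and 29554263 to 31651826 in the Hdac4-knockdown libraries. Levels are given as normalised read counts (CPM, the counts scaled to library size by TMM), and levels of different genes are compared only as RPKM, which is the CPM divided by the summed exon length of the gene in kilobases. Hdac4 itself was at 40.3 ± 0.412 CPM (SD, n = 3) in Control and at 29.6 ± 0.981 CPM (n = 3) in Hdac4-knockdown, which was -0.44 on the log2 scale (SE 0.0570, adjusted p = 8.98e-07 by edgeR's quasi-likelihood test with Benjamini-Hochberg adjustment). The groups differed widely: 10914 of 14531 genes tested, or 75.1%, passed the thresholds used (adjusted p under 0.05 and a log2 fold change beyond 0.05), with 38.0% higher and 37.1% lower in Hdac4-knockdown. In 76.8% of the tested genes the 3 libraries of a group did not overlap with those of the other.

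Of the osteoblast markers, Runx2, the master regulator of the lineage, was at 69.9 ± 4.64 CPM in Control and 79.5 ± 5.67 CPM in Hdac4-knockdown (n = 3 each), but Alpl, the alkaline phosphatase of osteoblasts, had at most 3 counts in any library. The summed level of the 8 osteoblast markers was 3550 to 3584 CPM in Control and 12922 to 13534 CPM in Hdac4-knockdown, with 4 of the 5 tested higher (Runx2, Sp7, Col1a1 and Dmp1) and Spp1 lower. For Runx2 the change was small (log2 fold change 0.19) and the libraries of the groups overlapped. Col1a1, the main collagen of bone, went from 338 ± 14.4 to 11015 ± 326 CPM, and Spp1, a bone matrix protein, from 3154 ± 30.9 to 2046 ± 36.1 CPM (n = 3 each). Without Col1a1, the other 7 osteoblast markers summed to 3199 to 3262 CPM in Control and 2116 to 2189 CPM in Hdac4-knockdown. Spp1 made up most of that sum in both groups, so its fall reflects Spp1. Sp7 rose from 0.145 ± 0.0828 to 2.71 ± 0.667 CPM, and Dmp1 from 3.58 ± 0.243 to 20.9 ± 0.913 CPM (n = 3 each). Skeletal myoblast markers were also present: the summed level of Myod1, Myog, Myf5 and Pax7 was 111 to 115 CPM in Control and 15.6 to 17.1 CPM in Hdac4-knockdown, and all 4 were lower. The 4 adipocyte markers summed to 27.3 to 29.6 CPM in Control and 3.07 to 4.52 CPM in Hdac4-knockdown, where Pparg was lower and Adipoq and Plin1 had at most 3 counts in any library. The 4 chondrocyte markers summed to 125 to 128 and 168 to 186 CPM, with 2 of 3 tested higher and Acan at 3 counts or fewer, and the 4 neural markers to 194 to 200 and 83.8 to 92.2 CPM, with 2 of 2 tested lower and Rbfox3 and Snap25 at 3 counts or fewer. Leukocyte, endothelial, epithelial and hepatocyte markers summed to at most 3.13 CPM in any library, with 1 of 2 tested leukocyte markers and the 1 tested endothelial marker higher and no epithelial or hepatocyte marker tested. The part of these marker shifts in the changes of the IGF genes was not tested, and in bulk RNA fewer cells of a type and less RNA per cell cannot be told apart.

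**Figure D1:**
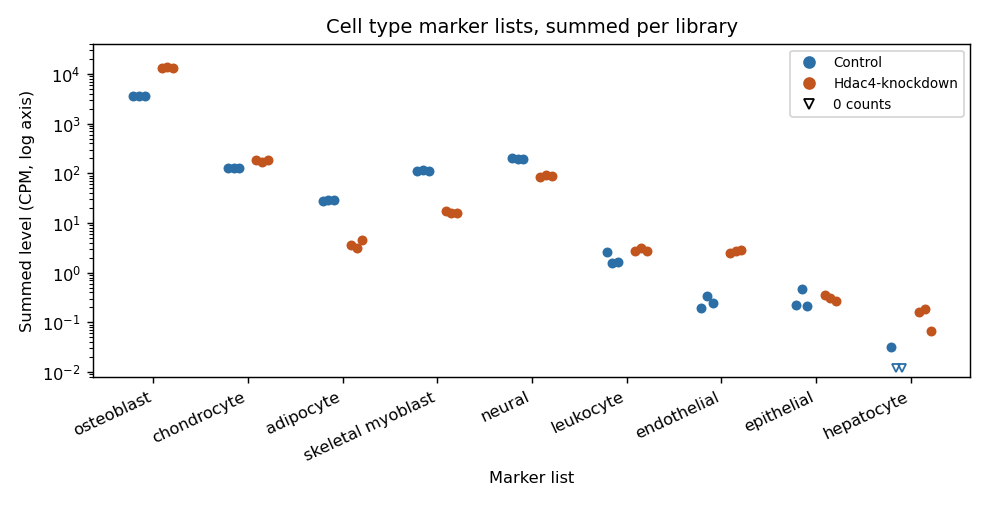
Summed CPM (log axis) of each cell type marker list, 1 point per library, for Control and Hdac4-knockdown; open triangles at the bottom are libraries with 0 counts. The osteoblast (through Col1a1), chondrocyte (through Col2a1), leukocyte and endothelial (mostly Pecam1) sums were higher in all 3 Hdac4-knockdown libraries. The skeletal myoblast, adipocyte and neural sums were lower in all 3, and the epithelial sums overlapped. The chondrocyte marker Sox9 and Cd68, the larger part of the leukocyte sums, did not pass the thresholds. The leukocyte sums lay close together, at 1.60 to 2.59 CPM in Control and 2.69 to 3.13 CPM in Hdac4-knockdown. The hepatocyte sums, 0 to 0.0327 CPM in Control and 0.0664 to 0.186 CPM in Hdac4-knockdown, rest on too few counts to read as a shift.

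Of the 10 members, 9 passed the filter on low counts and were tested, and Igf2 was not. All 9 passed the thresholds, 5 higher (Igf1, Igf1r, Igf2r, Igfbp4 and Igfbp6) and 4 lower (Igfbp2, Igfbp3, Igfbp5 and Igfbp7), and the groups did not overlap in any of the 9. These counts stand against 75.1% of all tested genes past the same thresholds and 76.8% not overlapping, so a change of this kind was common among all genes. Igf1 and Igfbp3 passed the filter only through the group in which they were high. By a threshold of 2 on the log2 scale, which was chosen after seeing the data, 6 of the 9 changed by more (Igf1, Igf2r, Igfbp2, Igfbp3, Igfbp4 and Igfbp5), beside 12.7% of all tested genes. Without Igf1 and Igfbp3, whose fitted changes depend on the prior count, it was 4 of 7. The members were also chosen with earlier results of these data known, so these counts do not measure an excess over all genes. The median log2 fold change was 0.38 over the 9 members and 0.01 over all 14531 genes, of which the middle 90% lay between -1.88 and 2.95.

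**Figure D2:**
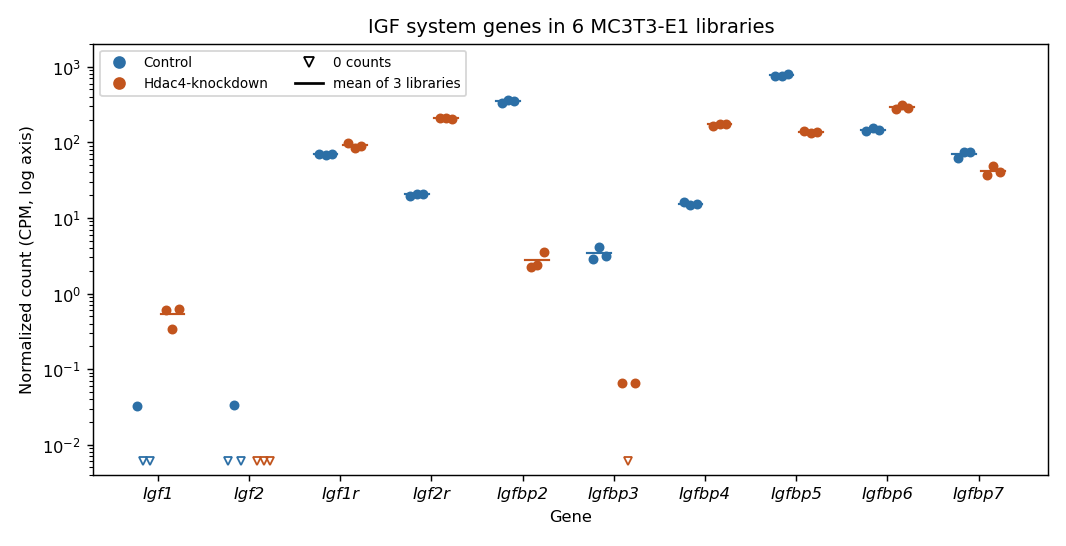
CPM (log axis) of the 10 IGF system genes, 1 point per library, with a bar at the mean where all 3 libraries had counts; open triangles are libraries with 0 counts. Igfbp2 fell from 335 to 365 CPM to 2.23 to 3.59 CPM, and Igf2r and Igfbp4 rose above every Control library.

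Igf1 (ENSMUSG00000020053, chromosome 10, 87858265 to 87937042, plus strand, GRCm38), the main growth factor made locally in bone, had 1, 0 and 0 counts in the Control libraries and 19, 11 and 19 counts in the Hdac4-knockdown libraries. The highest Hdac4-knockdown library thus held 0.631 CPM, so that Igf1 was detected there at a low level and was at or under the counting floor of 3 counts (0.0982 to 0.105 CPM) in Control. The 49 counts against 1 gave a ratio of 46.8, with a 95% interval of 8.01 to 1884 that covers counting error only. The fitted log2 fold change of 5.11 (SE 0.817, adjusted p = 1.35e-05) depends on the prior count for Control libraries at 0 and ranged from 4.43 to 7.01 over the alternatives.

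Igf2 (ENSMUSG00000048583, chromosome 7, 142650766 to 142666816, minus strand), the fetal ligand expressed from the paternal copy, had 0, 1 and 0 counts in Control and 0 counts in each Hdac4-knockdown library. Both groups were at or under the floor, and no fold is given. Of its 5723 exon bases in GENCODE M21, 3596 also belong to Gm49394, a gene on the same strand, and 98 to Igf2os, so that 64.5% of the exon bases and 80.5% of the coding bases are shared. Reads that fitted more than 1 gene have a line of their own in the deposited tables (5.84 to 6.51% of all listed reads). Whether they were also counted on the genes is not known, because the counting mode is not given. Gm49394, looked up after the Igf2 counts were seen, also had 0 counts in all 6 libraries. In this annotation 2029 exon bases belong to Igf2 alone, so the level of Igf2 may have been measured over that stretch only.

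Igf1r (ENSMUSG00000005533, chromosome 7, 67952827 to 68233668, plus strand), the tyrosine kinase through which both ligands signal, had 69.2, 68.8 and 70.9 CPM in Control and 98.9, 84.8 and 88.9 CPM in Hdac4-knockdown. Every Hdac4-knockdown library was above every Control library, but the Hdac4-knockdown libraries spread more widely. The log2 fold change was 0.38 (SE 0.0541, adjusted p = 2.83e-06), the smallest change among the members.

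Igf2r (ENSMUSG00000023830, chromosome 17, 12682406 to 12769664, minus strand), whose protein removes IGF2 from the cell surface and sorts lysosomal enzymes, had 19.8, 20.7 and 20.9 CPM in Control and 212, 207 and 205 CPM in Hdac4-knockdown. The 3 libraries of each group lay close together and the groups were far apart. The log2 fold change was 3.35 (SE 0.0491, adjusted p = 2.01e-21). Per length, Igf2r went from 2.20 ± 0.0636 to 22.3 ± 0.399 RPKM (n = 3 each), from rank 9391 to rank 2268 of the 14521 tested genes with an annotated length. Airn, the noncoding RNA that overlaps Igf2r on the opposite strand and silences it on the paternal copy, shares none of its exon bases. It went from 2.20 ± 0.345 to 3.29 ± 0.585 CPM (log2 fold change 0.58, SE 0.191, adjusted p = 0.0101). The libraries were unstranded, so Igf2r reads from outside its exons cannot be told apart from Airn reads there. Without Control replicate 3 the adjusted p for Airn was 0.0520, and without Hdac4-knockdown replicate 2 it was 0.0650.

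The balance of the receptors changed with these differences. Within each library, the log2 ratio of Igf2r to Igf1r per length was -0.92 ± 0.0370 in Control and 2.05 ± 0.0939 in Hdac4-knockdown (n = 3 each), so that Igf2r transcripts were fewer than those of Igf1r in every Control library and more numerous in every Hdac4-knockdown library. The difference of 2.96 had p = 0.1 by the two-sided exact permutation test over libraries, the smallest that 3 against 3 can give.

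**Figure D3:**
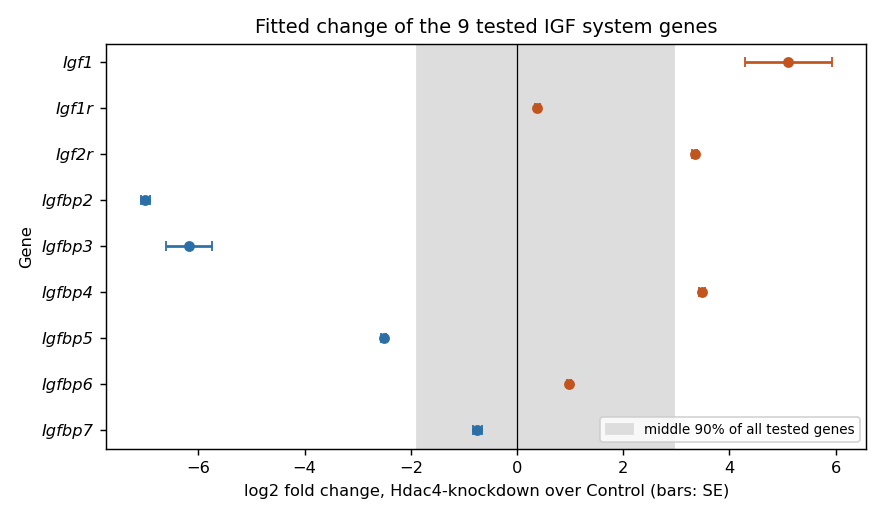
Fitted log2 fold change (Hdac4-knockdown over Control, bars are SE) of the 9 tested members, on a band from -1.88 to 2.95 that holds the middle 90% of all 14531 tested genes. Igfbp2, Igfbp3 and Igfbp5 lie below the band, Igf1, Igf2r and Igfbp4 above it, and Igf1r, Igfbp6 and Igfbp7 inside it.

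Igfbp2 and Igfbp5 are neighbours on chromosome 1, and both fell. Igfbp2 (ENSMUSG00000039323, 72824503 to 72852474, plus strand) and Igfbp5 (ENSMUSG00000026185, 72857932 to 72874884, minus strand) point towards each other, with 5457 bases between their ends. Igfbp2, a binding protein that also binds cell surface integrins, had 335, 365 and 348 CPM in Control and 2.23, 2.39 and 3.59 CPM in Hdac4-knockdown. These were 9905 to 10937 counts per library against 69 to 108, so the low level was still counted in every library. The log2 fold change of -7.00 (SE 0.0886, adjusted p = 2.58e-22), a 128-fold lower level, was the largest in size among the members in this fit and ranked 68 by size among all tested genes. Per length, Igfbp2 went from rank 213 of 14521 genes in Control to rank 10368.

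Igfbp5, which binds bone matrix and is the most abundant binding protein in bone, had 758, 762 and 805 CPM in Control and 142, 131 and 135 CPM in Hdac4-knockdown. The groups were far apart and the spread within each was small. On the log2 scale the difference was -2.51 (SE 0.0431, adjusted p = 2.12e-20), and Igfbp5 went from rank 328 to rank 2235 per length. The fall of Igfbp5 was smaller than that of its neighbour. Within a library, the log2 ratio of Igfbp5 to Igfbp2 per length went from -0.55 in Control to 3.96 in Hdac4-knockdown, a difference of 4.51 (two-sided exact permutation p = 0.1). Tns1, a focal adhesion gene further along on chromosome 1, went from 351 ± 6.87 to 159 ± 6.27 CPM (n = 3 each, log2 fold change -1.15, adjusted p = 2.79e-15).

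Igfbp3 (ENSMUSG00000020427, chromosome 11, 7206086 to 7213923, minus strand) encodes the main IGF carrier of serum. It had 88, 124 and 90 counts in Control and 2, 0 and 2 counts in Hdac4-knockdown. It was thus a low transcript in Control, at 2.88, 4.14 and 3.16 CPM, and at or under the floor of 3 counts in each Hdac4-knockdown library. The 302 counts against 4 gave a Control to Hdac4-knockdown ratio of 79.1, with a 95% interval of 30.6 to 292 for counting error only. The fitted log2 fold change was -6.18 (SE 0.435, adjusted p = 1.19e-10) and depends on the prior count. Igfbp1, the gene next to Igfbp3 and a carrier made mainly by liver, had 0 counts in all 6 libraries.

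Igfbp4 (ENSMUSG00000017493, chromosome 11, 99041244 to 99054392, plus strand), known mostly as an inhibitor of IGF action that the protease PAPP-A cuts, had 16.2, 15.0 and 15.3 CPM in Control and 166, 177 and 176 CPM in Hdac4-knockdown. Each Hdac4-knockdown library was far above every Control library. The log2 fold change was 3.48 (SE 0.0537, adjusted p = 4.16e-21). Per length, Igfbp4 went from 3.51 ± 0.136 to 39.2 ± 1.29 RPKM (n = 3 each), from rank 8337 to rank 1162 of the 14521 genes.

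Igfbp6 (ENSMUSG00000023046, chromosome 15, 102144362 to 102149511, plus strand), which binds IGF2 in preference to IGF1, had 143, 153 and 147 CPM in Control and 277, 310 and 287 CPM in Hdac4-knockdown. The groups did not overlap, and the difference was 0.98 on the log2 scale (SE 0.0464, adjusted p = 2.09e-13). Already at rank 316 per length in Control, Igfbp6 stood at rank 124 in Hdac4-knockdown.

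Igfbp7 (ENSMUSG00000036256, chromosome 5, 77349240 to 77408041, minus strand), a secreted relative that binds IGF weakly, had 61.3, 74.9 and 74.2 CPM in Control and 37.2, 48.2 and 40.0 CPM in Hdac4-knockdown. Its replicates spread more widely than those of Igfbp6, relative to the mean, but the lowest Control library was still above the highest Hdac4-knockdown library. On the log2 scale it differed by -0.75 (SE 0.0826, adjusted p = 1.09e-07). Of its 1209 exon bases, 85 are shared with Polr2b.

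Levels per length gave the order of the members in each group. In Control, Igfbp2 was highest at 189 ± 8.15 RPKM, followed by Igfbp6 at 133 ± 4.54, Igfbp5 at 129 ± 4.31 and Igfbp7 at 58.0 ± 6.32 RPKM (n = 3 each). The libraries of Igfbp6 and Igfbp5 overlapped, and among the binding proteins and receptors no other neighbours in the Control order did. Well below came Igf1r at 4.15 ± 0.0647, Igfbp4 at 3.51 ± 0.136, Igf2r at 2.20 ± 0.0636 and Igfbp3 at 1.08 ± 0.212 RPKM. The ligands came last, with at most 1 count in any Control library and no order between them.

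In Hdac4-knockdown, Igfbp6 was highest at 262 ± 15.1 RPKM and stood clear of all others. Igfbp4 at 39.2 ± 1.29 and Igfbp7 at 34.6 ± 4.70 RPKM overlapped, as did Igfbp5 at 22.6 ± 0.863 and Igf2r at 22.3 ± 0.399 RPKM (n = 3 each). Igf1r followed at 5.41 ± 0.434 and Igfbp2 at 1.48 ± 0.402 RPKM, and Igf1 and Igfbp3 were below 0.1 RPKM. Igfbp2, the leading binding protein transcript in Control, was therefore the lowest but one of the binding proteins in Hdac4-knockdown.

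Summed over Igfbp2 to Igfbp7, the binding protein transcripts reached 492, 529 and 520 RPKM in Control and 342, 381 and 355 RPKM in Hdac4-knockdown. The sum in Hdac4-knockdown was 70.0% of that in Control, with no overlap between the groups (log2 ratio -0.51, two-sided exact permutation p = 0.1, the smallest possible). The summed level thus changed less on the log2 scale than any of its parts, of which Igfbp7 changed least (-0.75). Igfbp2 made up 36.8 ± 0.632% of the sum in Control and 0.413 ± 0.116% in Hdac4-knockdown, and Igfbp5 25.1 ± 0.989% and 6.32 ± 0.579% (n = 3 each). Igfbp6 made up 25.9 ± 0.361% in Control and 72.8 ± 0.204% in Hdac4-knockdown, and Igfbp4 0.684 ± 0.0534% and 10.9 ± 0.371%. Control transcripts were thus spread over Igfbp2, Igfbp5 and Igfbp6, whereas Igfbp6 alone held most of them in Hdac4-knockdown. Igfbp7 had 11.3 ± 0.829% and 9.58 ± 0.761%, and there the groups overlapped (two-sided exact permutation p = 0.2). The shares of the other 5 did not overlap between groups (two-sided exact permutation p = 0.1 each). Transcript shares were measured, not protein.

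**Figure D4:**
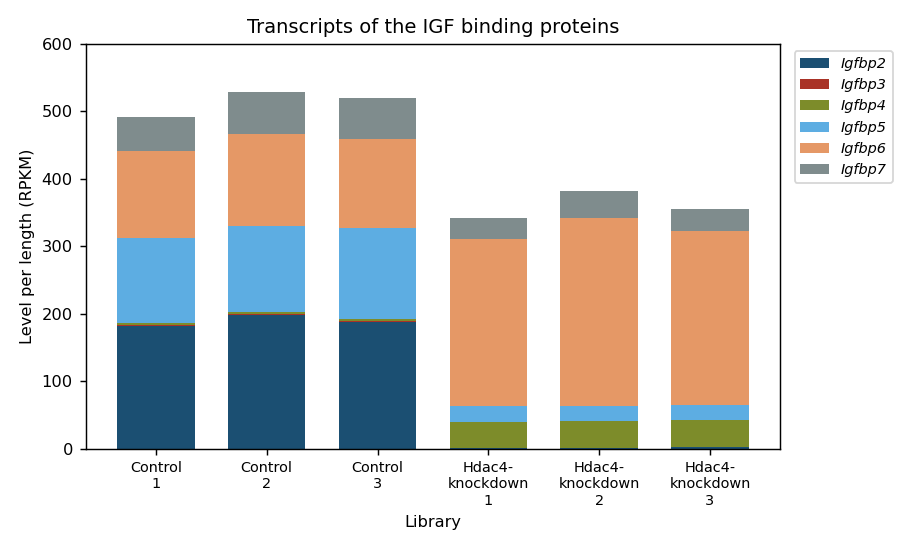
Stacked RPKM of Igfbp2 to Igfbp7 in each of the 6 libraries. The sum is 492 to 529 RPKM in Control and 342 to 381 RPKM in Hdac4-knockdown, where Igfbp6 takes up most of each bar and Igfbp2 is barely visible.

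Other genes of the IGF pathway were taken from lists of 57 genes, of which 47 were tested. Of these, 19 were higher, 18 were lower and 10 did not pass the thresholds, near the 38.0% and 37.1% of all genes, and their median log2 fold change was 0.01. Among the proteases that cut binding proteins and their inhibitors, 2 were higher, 2 lower and 1 did not pass. The last was Pappa, the gene of PAPP-A, at 4.41 ± 0.279 CPM in Control and 4.34 ± 1.14 CPM in Hdac4-knockdown (log2 fold change -0.0254). The protease Adam12 rose from 35.1 ± 1.23 to 77.9 ± 1.67 CPM and Pappa2, a relative of PAPP-A that cuts IGFBP5, rose from 1.33 ± 0.118 to 2.65 ± 0.139 CPM (n = 3 each). Htra1, a serine protease that cuts IGFBP5, fell from 271 ± 9.32 to 77.0 ± 1.36 CPM, and Stc2, an inhibitor of PAPP-A, fell from 12.4 ± 0.435 to 2.46 ± 0.403 CPM. Their log2 fold changes were 1.15, 0.99, -1.82 and -2.33, in this order. Both directions thus occurred among the proteases themselves. Of the other carriers Igfbp1, Igfals and Igfbpl1, none passed the filter.

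The Igf2 mRNA-binding proteins, named for Igf2 mRNA but binding many transcripts, moved in both directions. Igf2bp1 rose 22.6-fold, from 3.29 ± 0.148 to 74.3 ± 0.395 CPM, and Igf2bp3 rose 9.28-fold, from 2.25 ± 0.370 to 20.8 ± 0.972 CPM (n = 3 each). Igf2bp2, the most abundant of the 3 in Control, fell from 102 ± 2.32 to 52.0 ± 2.37 CPM. H19, the noncoding RNA next to Igf2 and expressed from the maternal copy, fell from 157 ± 3.81 to 21.3 ± 0.878 CPM (log2 fold change -2.88, SE 0.0512, adjusted p = 3.66e-20). Together with Airn and Tns1 it made 3 tested neighbours of the members, 1 higher and 2 lower.

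Downstream of Igf1r, the changes were mixed in each list. Of 8 tested receptor adaptors, 3 were higher and 3 lower. Irs1, the insulin receptor substrate that links Igf1r to PI3K, fell from 125 ± 4.30 to 30.3 ± 1.65 CPM (log2 fold change -2.04, SE 0.0528, adjusted p = 1.29e-17), and Irs2 fell from 20.3 ± 1.54 to 12.0 ± 0.593 CPM. Grb10, an adaptor that inhibits the receptor, rose from 0.627 ± 0.0907 to 6.12 ± 0.632 CPM (log2 fold change 3.27, SE 0.199, adjusted p = 1.15e-11), and the docking protein Gab1 rose from 24.4 ± 0.835 to 31.6 ± 0.0262 CPM. Of 11 PI3K and AKT genes, 5 were higher and 3 lower, with the largest rises in the catalytic subunit Pik3cd (log2 fold change 3.42) and the regulatory subunit Pik3r3 (1.33). The kinases Akt2 (-0.31) and Akt1 (-0.22) were slightly lower.

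Of 11 FoxO and TOR genes, 4 were higher and 5 lower. The FoxO factors, which AKT keeps out of the nucleus, were split. Foxo3 had a log2 fold change of 1.14 and Foxo1 of 0.37, but Foxo6 had one of -2.96, from 6.04 ± 1.24 to 0.770 ± 0.229 CPM, and the kinase Mtor had one of -0.64. On the growth hormone axis, which drives Igf1 in liver and bone, the receptor Ghr (log2 fold change 0.41) and the inhibitor Socs2 (0.31) were higher, Stat5a (-0.43) was lower and 2 of 5 did not pass. Insr, the insulin receptor, fell from 55.9 ± 2.21 to 49.0 ± 0.652 CPM (log2 fold change -0.19, SE 0.0514, adjusted p = 0.00262), a call that was lost under upper quartile normalization (-0.10, adjusted p = 0.0879). No other insulin ligand or receptor gene was tested.

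**Figure D5:**
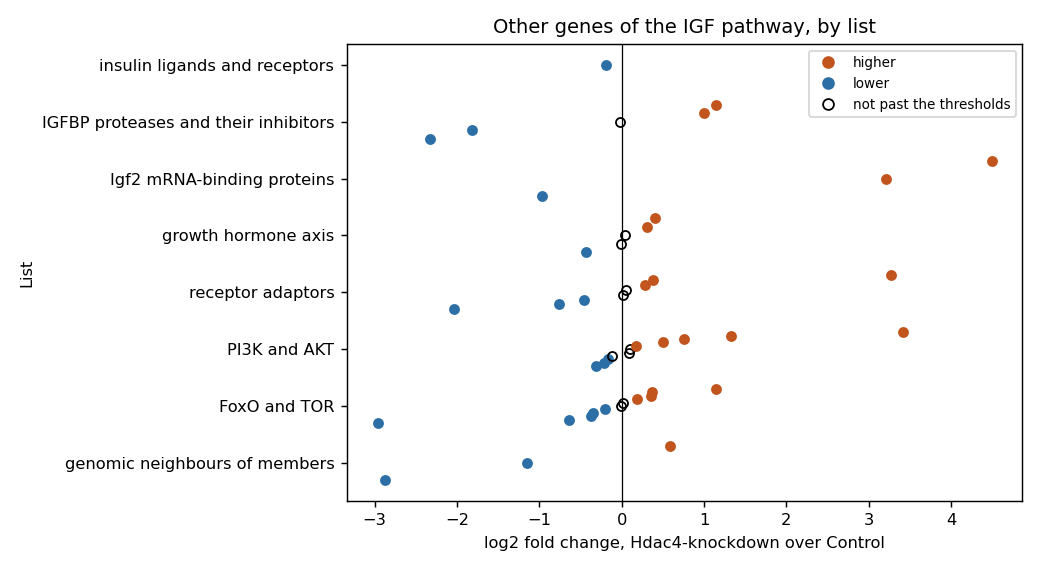
Log2 fold change (Hdac4-knockdown over Control) of the 47 tested genes from the other IGF pathway lists, 1 row per list, coloured by direction where past the thresholds and open where not. Higher and lower genes occur in most lists, with Igf2bp1 at 4.49 the highest and Foxo6 at -2.96 the lowest.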

How the data were processed

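Poly-A selected RNA of 3 Control and 3 Hdac4-knockdown samples of MC3T3-E1 was sequenced paired-end from libraries of an unstranded kit. For each library a table of unnormalized counts per Ensembl gene was deposited by the authors. The submitters' processing notes name FastQC, STAR 2.7.3a, HTSeq 0.12.4 and the mm10 build, and the annotation release and counting mode are not given in the sources used here. Lines that name no gene held 14.3 to 15.0% of listed reads and were left out. Without strand, reads of genes that overlap on opposite strands cannot be told apart, and Gm26720 covers 3536 of the 15813 exon bases of Hdac4. The labels call the knockdown Hdac4-shRNA, and the paper gives the hairpin as Hdac4-shRNA3.

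Symbols, positions and exon lengths came from GENCODE M21 (GRCm38), which matched 53706 of 53801 identifiers, and promoter sequences from RefSeq (GRCm38.p6), which matched 10 of 10 members. Counts were compared by edgeR 4.0.16 in R 4.3.3 with TMM scaling, the default filterByExpr filter and its quasi-likelihood F test, and p-values were adjusted by the Benjamini-Hochberg method over 14531 genes. A gene was called at an adjusted p under 0.05 and a log2 fold change beyond 0.05, the thresholds that the study states. The paper does not name its test for these thresholds, and it reports fewer genes in each direction than were called here. The biological coefficient of variation was 4.79%. Chi-square per degree of freedom between libraries of a group was 3.38 to 9.15, so that replicates differed by more than sampling noise. Ratios within a library used an offset of 0.5 counts. The edgeR script was tested on simulated data. Figures were drawn with matplotlib 3.10.9.

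All 10 members were named. From each further list the text names at most the 2 largest changes in each direction among called genes, and any uncalled gene where fewer than 4 were listed. Hdac4 and Pappa are named besides. The members and lists were chosen with earlier results of these data known. Results were recomputed with library size alone, upper quartile or DESeq2 size factors as scaling, other filters, DESeq2 1.42.0, limma-voom 3.58.1, a replicate block, higher fold thresholds, another gene length, Igfbp7 out of the sum, and each library left out in turn. Intervals and the floor of 3 counts cover counting error only.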

Additional observations from a re-analysis of the deposited data

How the results depend on the processing

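All 9 tested members kept their direction under every alternative that tested them, and kept their calls under all but the fold thresholds. Requiring at least 10 counts in every library removed Igf1 and Igfbp3 and left 7. With a log2 fold change threshold of 0.5, 8 members and 19 other pathway genes were called among 3579 higher and 2879 lower genes. With a threshold of 1 these were 6 and 13 among 2397 and 1543, and with a threshold of 2, chosen after seeing the data, 6 and 8 among 1196 and 652. Hdac4, at -0.44, passed none of the 3. A replicate block in the fit gave 5523 genes higher and 5441 lower, and 9 members and 38 other pathway genes (37 without it). Deviations of libraries with the same number correlated between -0.0111 and 0.0270. With 3 libraries per group these values cannot tell matched samples from unmatched ones. Whether a Control and an Hdac4-knockdown sample of the same number were prepared together was not tested. Upper quartile normalization gave 6316 higher and 4608 lower genes.

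With the longest coding transcript as gene length, the log2 ratio of the summed binding proteins was -0.69, and the share differences (percentage points, Hdac4-knockdown minus Control) were -44.5 for Igfbp2, 11.6 for Igfbp4, -15.6 for Igfbp5, 49.0 for Igfbp6 and -0.362 for Igfbp7. With Igfbp7 left out of the sum they were -41.1 for Igfbp2, -0.233 for Igfbp3, 11.3 for Igfbp4, -21.3 for Igfbp5 and 51.3 for Igfbp6. With 3 against 3 no exact test could fall below 0.1.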
